A study of Homo sapiens with 12 samples.

Results

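The genes described here encode the respiratory chain and the ATP synthase of the mitochondrion, together with the RNAs made from mitochondrial DNA. They were taken by name. A gene of the count table belonged to the set if it carried the mitochondrial prefix MT- or the family names NDUF (complex I), SDH (complex II), UQCR (complex III), COX4 to COX8 (complex IV) or ATP5 (complex V, the ATP synthase), with at least 10 counts summed over the 12 libraries. Such a name was carried by 219 of the 60666 genes listed, and 129 of these reached 10 counts. The 129 were the 13 mRNAs of mitochondrial DNA (MT mRNAs), 2 MT rRNAs, 11 MT tRNAs, 84 nuclear subunit genes (37 named for complex I, 4 for complex II, 9 for complex III, 14 for complex IV and 20 for complex V) and 19 nuclear genes with pseudogene names. Of the 90 left out, 76 had pseudogene names, 11 were MT tRNAs and 3 were nuclear subunit genes, the tissue-restricted isoforms COX4I2 with 0 counts, COX6A2 with 2 and COX7A1 with 1. A name is not a perfect guide, since NDUFA4 is known as a subunit of complex IV and COX7A2L as a factor that joins complexes III and IV, and both are counted under their names here. ATP5MD, ATP5MPL and ATP5S are older names of ATP5MK, ATP5MJ and DMAC2L.

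HT1376 is a human bladder cancer cell line. Bulk RNA was sequenced from 4 groups of 3 libraries. HT1376 CT is a clonal control line that went through CRISPR with a guide against luciferase and was left untreated, and HT1376 CT with IFNγ is the same line given 100 ng/mL interferon gamma for 48 h. HT1376 FOXP3 KO is a clonal line made with a guide against exon 2 of FOXP3, a transcription factor, and was left untreated, and HT1376 FOXP3 KO with IFNγ received the same interferon. Both lines carry the lentiviral CRISPR construct and were selected in puromycin as single cell clones, so an effect of the deletion and any other difference between these clones cannot be told apart. Libraries are named by the numbers 11, 12 and 13 that the labels give them in each group, and values below follow that order. Nothing states that the libraries of a group came from separate cultures, so the p-values measure the spread between these libraries, which may be technical.

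The chain couples the oxidation of NADH and succinate to the pumping of protons, and the ATP synthase uses the resulting gradient to make ATP. Mitochondrial DNA codes for a few core subunits of complexes I, III, IV and V, and all of complex II and most subunits of the rest are nuclear genes. Mitochondrial DNA is transcribed from both strands as long precursors from which tRNAs are cut out to release the mRNAs, with MT-ND6 as the one mRNA of the light strand, whereas each nuclear subunit gene has its own promoter. The question here was whether a larger mitochondrial share of the RNA in the FOXP3 KO line had a counterpart in the nuclear genes of the same complexes. In bulk libraries a change in the number of cells or mitochondria of a kind and a change in the RNA of each cannot be told apart.

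Library totals ran from 4490684 counts (CT with IFNγ, library 12) to 39270042 (CT, library 13). FOXP3 had at most 3 counts in any library, so these counts cannot check the line labels. The epithelial and urothelial markers summed to 3938 to 5099 CPM (counts scaled to the size of the library) in all 12 libraries, although 2 of 13, UPK1A and UPK3A, stayed under 10 counts in total. Of the 10 tested between the untreated lines PPARG (log2 fold change 1.45) and KRT7 (0.95) were higher in FOXP3 KO, and EPCAM (-1.92), GATA3 (-0.68) and CDH1 (-0.65) were lower. The 8 fibroblast markers summed to 57.0 to 75.5 CPM in CT, 28.2 to 36.7 in CT with IFNγ, 481 to 732 in FOXP3 KO and 451 to 663 in FOXP3 KO with IFNγ. Between the untreated lines LUM (8.65) and DCN (6.88) had the highest log2 fold changes of these. COL1A1 (-1.87) and THY1 (-5.78) were lower in FOXP3 KO. The 8 immune markers summed to 3.56 to 5.25 CPM in the libraries of CT and CT with IFNγ and to 75.7 to 233 CPM in those of FOXP3 KO, nearly all of it CSF1R, and MS4A1, LYZ and NKG7 were under 10 counts in total. The 5 endothelial markers summed to at most 2.72 CPM. The part of these differences in the results below was not tested.

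The 13 MT mRNAs took a larger share of all counts in the FOXP3 KO line. In CT the share was 3.52%, 3.61% and 3.09%, and in FOXP3 KO it was 5.09%, 4.37% and 4.71%. With IFNγ it was 3.55%, 3.50% and 3.36% in CT and 4.84%, 4.48% and 4.08% in FOXP3 KO. The lines did not overlap under either treatment, and the mean shares stood at 3.41% ± 0.279 and 4.72% ± 0.359 without IFNγ (SD, n = 3), a ratio of 1.39, and at a ratio of 1.29 with it. By complex the untreated ratio was 1.40 for the 7 complex I mRNAs, 1.45 for MT-CYB of complex III, 1.39 for the 3 complex IV mRNAs and 1.16 for the 2 ATP synthase mRNAs, and differences between complexes were not tested.

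As a summed share, the nuclear subunit genes showed no such difference untreated. With IFNγ they showed a smaller one, whose separation depended on the denominator. Their 84 genes together held 0.507%, 0.480% and 0.478% of the counts outside mitochondrial DNA in CT, and 0.506%, 0.466% and 0.526% in FOXP3 KO. These values overlapped, with a ratio of means of 1.02. With IFNγ they held 0.421%, 0.411% and 0.405% in CT and 0.441%, 0.425% and 0.463% in FOXP3 KO, which did not overlap, with a ratio of 1.07. By complex that ratio ran from 0.996 in complex IV to 1.11 in complex V. As a share of all counts, the denominator used for the MT mRNAs, the treated lines overlapped. FOXP3 KO with IFNγ library 12 (0.4055%) then lay below CT with IFNγ library 11 (0.4060%), and the ratio of means was 1.06. Gene by gene, the median log2 fold change between the lines with IFNγ was -0.04. Each count of a nuclear subunit gene was accompanied by 7.20, 7.81 and 6.67 MT mRNA counts in CT and by 10.6, 9.81 and 9.41 in FOXP3 KO, which did not overlap.

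**Figure D1:**
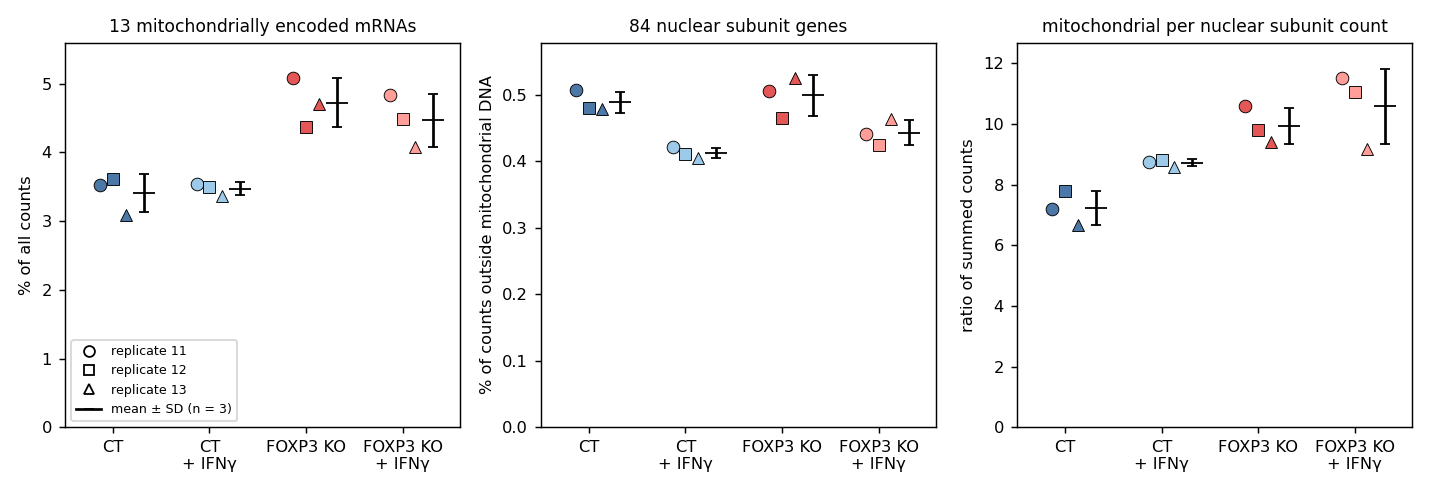
Share of the 13 MT mRNAs in all counts (%), share of the nuclear subunit genes in the counts outside mitochondrial DNA (%) and MT mRNA counts per nuclear subunit count, for each of the 12 libraries, with marker shapes for the library numbers 11, 12 and 13 and bars for mean ± SD. The lines are apart in the MT share but overlap in the untreated nuclear share, which is lower with IFNγ in both lines.

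Other abundant RNAs moved with the lines as well. MALAT1, a nuclear-retained long RNA, held 2.39% to 3.11% of counts in CT and 4.70% to 5.12% in FOXP3 KO, a ratio of 1.80, whereas NEAT1, another nuclear-retained RNA, had a ratio of 0.756. With MALAT1 and the other nuclear-retained and small RNAs, the MT rRNAs and the MT tRNAs taken out of the total, the MT mRNA ratio between the untreated lines was 1.42. MT rRNAs were 0.00403% to 0.0191% of counts, as rRNA had been depleted before sequencing.

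Between the untreated lines 8 of 13 MT mRNAs were higher in FOXP3 KO and 0 were lower at an adjusted p under 0.05 (edgeR quasi-likelihood test, adjusted over all 25320 genes tested). Of all genes tested 14.0% were higher and 18.2% lower. At an unadjusted p under 0.05 there were 10 MT mRNAs, and DESeq2 called 9 higher and 0 lower. The median log2 fold change of the 13 was 0.42, against -0.02 over all genes, and 12 of 13 were above 0. No MT mRNA reached a log2 fold change of 1.

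Of the complex I mRNAs MT-ND1, MT-ND2, MT-ND3, MT-ND4 and MT-ND5 rose. MT-ND1 had 1925, 1436 and 1896 normalised CPM in CT and 2639, 1938 and 2393 in FOXP3 KO, so that the lowest KO library stood just above the highest CT library. Its log2 fold change was 0.42 ± 0.14 (SE, n = 3 per group, edgeR adjusted p = 0.0437). MT-ND3 stood further apart, with 442, 402 and 398 CPM in CT against 678, 553 and 595 in FOXP3 KO and a log2 fold change of 0.56 ± 0.11 (adjusted p = 0.00236, edgeR). The log2 fold changes of MT-ND2, MT-ND4 and MT-ND5 were 0.47 ± 0.13, 0.37 ± 0.12 and 0.43 ± 0.11. MT-ND4L, at 0.38 ± 0.14, had an adjusted p of 0.0634 by edgeR.

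In complex III MT-CYB, the cytochrome b gene, had 2904, 2396 and 2425 CPM in CT and 4051, 2627 and 3815 in FOXP3 KO. The groups overlapped, since KO library 12 lay below CT library 11, and the log2 fold change was 0.45 ± 0.15 (edgeR adjusted p = 0.0428). In complex IV MT-CO1, the catalytic subunit of cytochrome c oxidase, had 8025, 9557 and 8056 CPM in CT and 10532, 10061 and 10376 in FOXP3 KO, apart by a narrow margin, with 0.28 ± 0.09 on the log2 scale (adjusted p = 0.0404, edgeR). MT-CO2, which receives electrons from cytochrome c, was at 3753, 3939 and 3203 CPM in CT and 5500, 4772 and 5520 in FOXP3 KO (0.54 ± 0.11, edgeR adjusted p = 0.00252). MT-CO3 had a log2 fold change as large, 0.52, but with an SE of 0.22 it did not pass (adjusted p = 0.0947, edgeR).

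The ATP synthase mRNAs MT-ATP6 and MT-ATP8 did not pass the test between the lines. MT-ATP6 had 2485, 1690 and 1736 CPM in CT and 2618, 1567 and 2217 in FOXP3 KO, fully overlapping, with a log2 fold change of 0.12 ± 0.19 (edgeR adjusted p = 0.671). That of MT-ATP8 was 0.11 ± 0.21. Both signs turned when 1 library was left out: MT-ATP6 was -0.014 without KO library 11 and MT-ATP8 was -0.055 without CT library 13. MT-ATP8 overlaps MT-ATP6 and MT-ND4L overlaps MT-ND4 on mitochondrial DNA, and the nuclear copy MTATP6P1 took counts equal to 5.03% to 12.4% of those of MT-ATP6, so values of these genes depend on how shared reads were assigned, which is not given in the sources used here.

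MT-ND6, the light-strand mRNA, was the one MT mRNA with a negative value. It had 371, 196 and 400 CPM in CT and 236, 232 and 320 in FOXP3 KO. The groups overlapped and the log2 fold change of -0.29 ± 0.23 did not pass (edgeR adjusted p = 0.383). The number of MT mRNAs past the threshold leaned on single libraries. It was 3 without KO library 11 and 4 without CT library 13. Without CT library 12 there were 6 higher, and MT-ND6 was then called lower (-0.51, edgeR adjusted p = 0.0326).

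**Figure D2:**
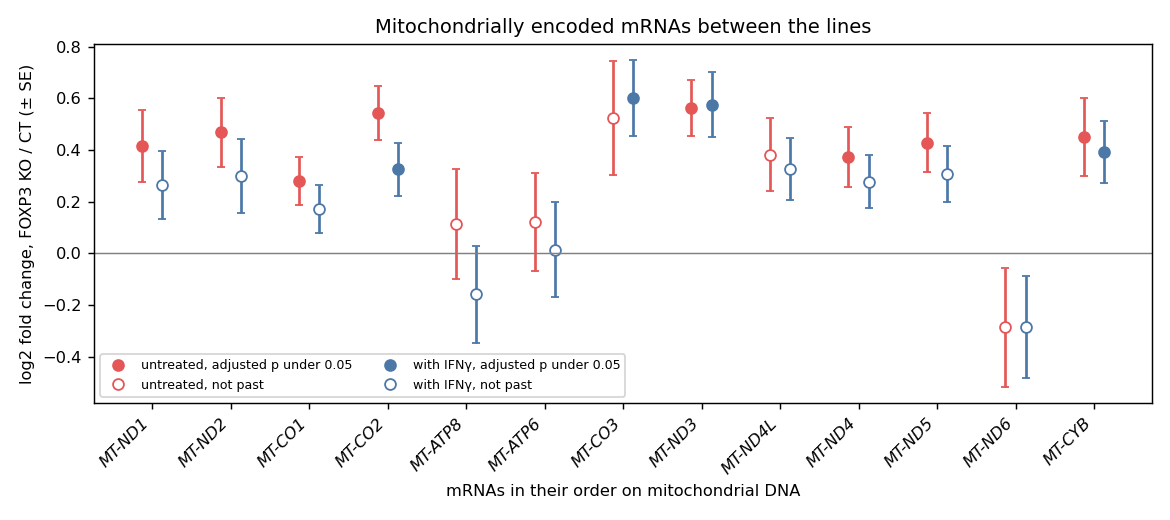
log2 fold change of FOXP3 KO against CT with its SE for the 13 MT mRNAs, untreated and with IFNγ, with filled points for an adjusted p under 0.05. Untreated values run from -0.29 for MT-ND6 to 0.56 for MT-ND3, and MT-ATP6 and MT-ATP8 lie near 0.

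With IFNγ present in both lines 4 of 13 MT mRNAs were higher in FOXP3 KO and 0 lower, beside 13.2% and 15.7% of the 24388 genes tested. Unadjusted p was under 0.05 for 7, and DESeq2 had 3 higher and 0 lower. These were MT-ND3 (0.58 ± 0.12, edgeR adjusted p = 0.0051), MT-CO3 (0.60 ± 0.15, adjusted p = 0.01), MT-CYB (0.39 ± 0.12, adjusted p = 0.032) and MT-CO2 (0.32 ± 0.10, adjusted p = 0.0362). MT-CYB, MT-CO2 and MT-ND3 were past the threshold under both treatments, 37.5% of the untreated calls and 75% of those with IFNγ. These comparisons share no library but use the same clones, and the overlap over all genes is not given here. MT-ND1 (0.26), MT-ND2 (0.30), MT-ND4 (0.28), MT-ND4L (0.33), MT-ND5 (0.31) and MT-CO1 (0.17) were above 0 without passing, MT-ATP6 was at 0.015, and MT-ATP8 (-0.16) and MT-ND6 (-0.29) were below 0. The median was 0.30. Only 2 mRNAs passed without CT with IFNγ library 13 or without FOXP3 KO with IFNγ library 11, and with all 12 libraries fitted together MT-ND3 alone passed.

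Same-numbered libraries of the 2 lines deviated together only weakly over all genes, and more clearly among genes with a mean CPM of at least 1, so the number was not used to pair the lines in the values given. With it as a replicate block 10 MT mRNAs were higher untreated, MT-CO3 and MT-ND4L in addition, beside 15.9% of all genes higher and 20.6% lower by edgeR. With IFNγ 9 were higher, the additional ones being MT-ND1, MT-ND2, MT-ND4, MT-ND4L and MT-ND5, beside 16.0% and 17.9%. Of the MT mRNAs 0 were lower under the block. For the nuclear subunit genes the block gave 8 higher and 19 lower of 84 untreated and 7 higher and 8 lower of 82 with IFNγ.

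On a per-length scale the MT mRNAs were far from equal, also among those of the plus strand. In CT the mean levels were 5542 CPM per kb for MT-CO1, 5310 for MT-CO2 and 4861 for MT-ND4, which did not differ beyond their SDs of 568, 559 and 823. MT-ATP6 (2893), MT-ND5 (2458), MT-CYB (2257), MT-CO3 (2227), MT-ND2 (1928) and MT-ND1 (1833) followed, each within the spread of its neighbours. MT-ND4L had 1513, MT-ND3 1197 and MT-ATP8 1108 CPM per kb. MT-ND6, on the minus strand, was lowest at 614 ± 210 CPM per kb.

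The MT rRNAs, the RNA of the mitochondrial ribosome, did not pass in either direction. MT-RNR1 of the small subunit had 39.9, 53.8 and 22.3 CPM in CT and 58.0, 14.6 and 41.8 in FOXP3 KO, and MT-RNR2 of the large subunit had 74.2, 88.8 and 38.6 CPM against 90.3, 27.6 and 54.9. The groups overlapped, with log2 fold changes of 0.01 ± 0.41 and -0.20 ± 0.37, so a difference of the size seen in the mRNAs was not detectable in these depleted RNAs.

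Of the 10 MT tRNAs tested between the untreated lines 1 was called higher and 1 lower, beside 14.0% and 18.2% of all genes. The 1 higher was MT-TM, which was tested only through its FOXP3 KO counts and is counted on that ground. The 4 tRNAs of the plus strand, MT-TM among them, had a median log2 fold change of 0.32. The 6 of the minus strand, the strand that also carries MT-ND6, had one of -0.43 with 5 of 6 below 0. With IFNγ the medians were -0.33 and -0.63, and all 6 minus-strand tRNAs were below 0. These medians describe few genes with low counts.

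MT-TM is the methionine tRNA directly ahead of MT-ND2. It lies at chrM:4402-4469 on the plus strand of hg38, and MT-ND2 starts at the next base. Its counts therefore depend on how reads shared with MT-ND2 were assigned, which is not given in the sources used here. MT-TM and MT-TE are named here after their values were seen. MT-TM reached the minimum of 10 counts through the FOXP3 KO libraries, so no p-value is given for it and its call carries no weight. MT-TM had 0, 0 and 4 counts in CT, 1, 0 and 0 in CT with IFNγ, 43, 11 and 19 in FOXP3 KO and 11, 11 and 45 in FOXP3 KO with IFNγ. Every KO library was above every CT library. As CPM over 3 summed libraries, the ratio was 25.6 without IFNγ and 43.4 with it. These ratios only describe the libraries in which the gene was picked, and they rest on 4 MT-TM counts in CT and 1 in CT with IFNγ. The 30 reference bases around its anticodon are shown because its counts set the lines apart under both treatments. The anticodon, in capitals, lies in the loop closed by a stem of 5 paired bases.
MT-TM, hg38, chrM:4419-4448, plus strand: aagctatcgggccCATaccccgaaaatgtt

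The glutamate tRNA MT-TE, on the minus strand, had 36, 33 and 70 counts in CT and 7, 15 and 12 in FOXP3 KO, without overlap of the scaled values. Its log2 fold change was -1.56 ± 0.51 (edgeR adjusted p = 0.0379), a call that was lost without any 1 of the 6 libraries other than KO library 12. With IFNγ the counts were 9, 2 and 16 in CT and 9, 7 and 22 in FOXP3 KO, and the log2 fold change was -0.14.

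**Figure D3:**
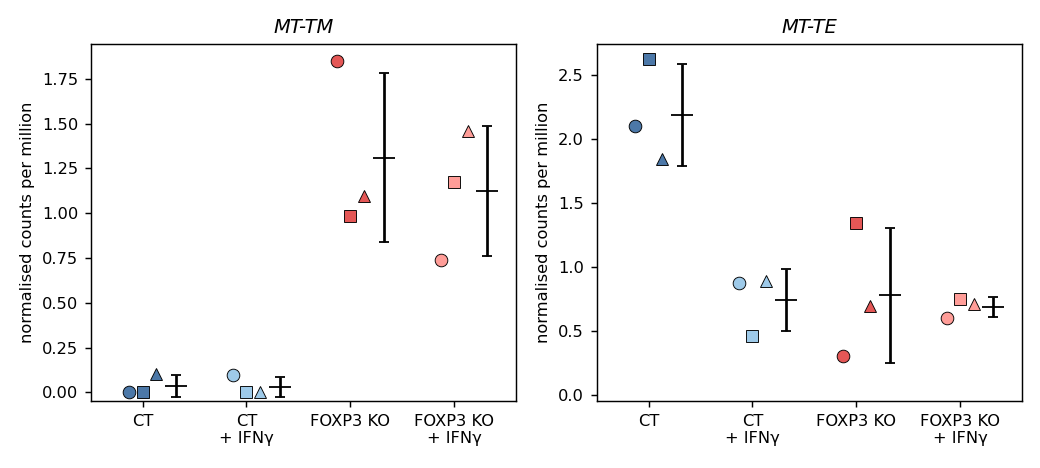
Normalised CPM of MT-TM and MT-TE in each of the 12 libraries, with bars for mean ± SD of 3 libraries. MT-TM is at or near 0 in all 6 CT libraries and higher in all 6 FOXP3 KO libraries, and MT-TE is highest in untreated CT.

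Of the 84 nuclear subunit genes 7 were higher and 15 lower in untreated FOXP3 KO, against the 14.0% and 18.2% of all genes given above. A share of 7 in 84 higher is below that background and 15 in 84 lower is near it. The median log2 fold change was -0.13, on the other side of 0 from the ratio of summed shares, and 29 of 84 were above 0. By complex the calls were 3 higher and 5 lower of 37 in complex I, 0 and 1 of 4 in complex II, 1 and 2 of 9 in complex III, 1 and 4 of 14 in complex IV and 2 and 3 of 20 in complex V, with medians from -0.16 in complex V to -0.04 in complex II. Library sizes computed without mitochondrial genes turned the split to 9 higher and 10 lower, with a median of -0.09, and moved the median of all genes from -0.02 to 0.02. Without KO library 11 there were 10 calls in all, and 12 without each of CT libraries 11, 12 and 13.

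With IFNγ in both lines 5 of 82 nuclear subunit genes were higher and 5 lower. Both shares are below the 13.2% higher and 15.7% lower of all genes tested. The median was -0.04, on the other side of 0 from the ratio of summed shares of 1.07, and 36 of 82 were above 0. ATP5MC2, ATP5S, NDUFA5 and UQCRC1 were higher under both treatments, 57.1% of the untreated calls and 80% of those with IFNγ. ATP5MD, COX5A, NDUFB3, NDUFS4 and UQCRB were lower under both, 33.3% and 100%, and 0 genes were called in opposite directions. Here too the comparisons use the same clones, and the overlap over all genes is not given. The number of calls with IFNγ was 5 without CT library 13 and 4 without FOXP3 KO library 11 of the treated groups.

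**Figure D4:**
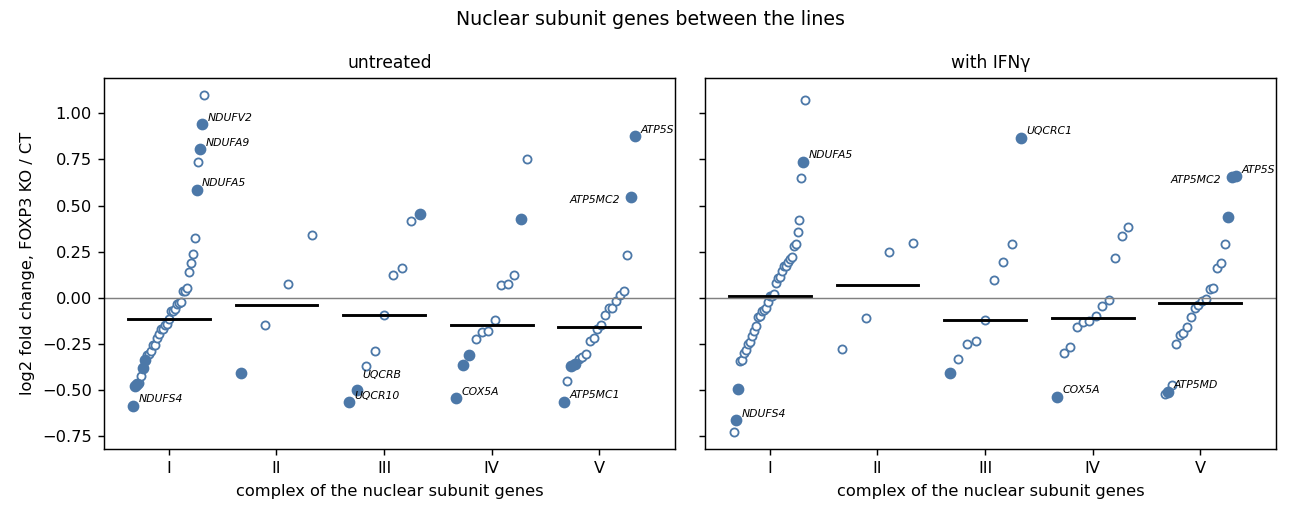
log2 fold change of FOXP3 KO against CT for the nuclear subunit genes by complex, untreated and with IFNγ, with filled points for an adjusted p under 0.05 and a bar at each median. COX6B2 and COX8C, with few counts, are not drawn. Calls lie on both sides of 0 in complexes I, III, IV and V untreated and in complexes I, III and V with IFNγ. The medians lie near 0.

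In complex I the higher genes were core and accessory subunits. NDUFV2, an iron-sulphur subunit of the NADH-oxidising arm, had 7.18, 5.01 and 6.07 CPM in CT and 12.4, 12.8 and 9.80 in FOXP3 KO, with no overlap and a log2 fold change of 0.94 ± 0.21 (edgeR adjusted p = 0.00616). NDUFA9, an accessory subunit at the joint of the arms, had 8.58, 5.01 and 7.94 CPM against 13.1, 12.4 and 12.2 (0.81 ± 0.22, edgeR adjusted p = 0.0166, lost without KO library 11). Neither passed with IFNγ, where CT alone held 9.31, 8.31 and 9.39 CPM of NDUFV2 and 11.9, 13.2 and 11.0 CPM of NDUFA9, above all of its untreated libraries. NDUFA5, another accessory subunit, had 72.5, 69.2 and 56.6 CPM in CT and 102, 80.6 and 113 in FOXP3 KO. It was higher by 0.58 ± 0.15 untreated and 0.74 ± 0.12 with IFNγ (edgeR adjusted p = 0.0108 and 0.00079).

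The lower genes of complex I were led by NDUFS4, an accessory subunit whose loss is a known cause of complex I deficiency. It had 45.3, 38.1 and 34.4 CPM in CT and 25.9, 24.5 and 27.4 in FOXP3 KO, apart in every library. The log2 fold change was -0.59 ± 0.14 untreated and -0.66 ± 0.16 with IFNγ (edgeR adjusted p = 0.00756 and 0.00947). NDUFB3, a subunit of the membrane arm, fell by 0.47 and 0.49 on the log2 scale, and both calls were lost without CT library 11 or 13 or KO library 11 of the groups compared. So the same complex held genes that rose and genes that fell.

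Complex II has no mitochondrially encoded subunit. SDHB, its iron-sulphur subunit, had 74.2, 68.2 and 76.3 CPM in CT and 53.4, 47.3 and 63.0 in FOXP3 KO, with a log2 fold change of -0.41 ± 0.13 (edgeR adjusted p = 0.031), and did not pass with IFNγ (-0.28). This call was lost without any 1 of the CT libraries and without KO library 11 or 12. The flavoprotein SDHA (0.34) and the membrane anchors SDHC (-0.15) and SDHD (0.07) did not pass.

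In complex III UQCRC1, a core subunit, and the small subunits UQCR10 and UQCRB moved in opposite directions. UQCRC1 had 78.7, 76.7 and 89.9 CPM in CT and 111, 104 and 119 in FOXP3 KO, and with IFNγ 56.3, 55.2 and 62.2 against 91.4, 96.4 and 120. The lines did not overlap, and the log2 fold change was 0.45 ± 0.11 untreated and 0.87 ± 0.13 with IFNγ (edgeR adjusted p = 0.0101 and 0.000598). UQCR10 had 41.8, 40.7 and 39.7 CPM in CT and 25.0, 28.8 and 28.4 in FOXP3 KO. It fell by 0.57 on the log2 scale (SE 0.12, edgeR adjusted p = 0.00429), and UQCRB, which binds ubiquinone, fell by 0.50, a call lost without CT library 11 or KO library 11. With IFNγ UQCRB fell by 0.41, which was lost without any 1 library other than FOXP3 KO library 12.

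In complex IV COX5A, a subunit of the matrix side, had 50.4, 50.6 and 47.6 CPM in CT and 31.4, 31.0 and 38.8 in FOXP3 KO. The log2 fold change was -0.54 under both treatments (SE 0.13 and 0.15, edgeR adjusted p = 0.007 and 0.0225), and the call with IFNγ was lost without library 11 of either treated group. Among the isoform genes COX6A1, the widely expressed form, rose from 34.2, 28.9 and 29.2 CPM in CT to 37.7, 40.8 and 45.1 in FOXP3 KO (0.43 ± 0.13, edgeR adjusted p = 0.0266), a call that was lost without CT library 12 or 13 or KO library 13. COX6B2, the testis form, had 7, 4 and 7 counts in CT, 1, 0 and 2 in CT with IFNγ and 0 in each FOXP3 KO library. That is at least 4.27-fold lower in CPM in untreated FOXP3 KO, with 3 counts over the group taken as the floor. It was tested only through its CT counts and is among the 15 lower genes on that ground. COX7A2 fell by 0.36 and COX7A2L by 0.31, and both calls were lost without any 1 of the 6 libraries and with library sizes computed without mitochondrial genes. That of COX7A2L was lost by DESeq2 as well. COX4I1 (-0.12), COX6B1 (0.07), COX7B (0.07), COX7B2 (0.75), COX8A (-0.22), COX8C (0.72) and NDUFA4 (0.24) did not pass.

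In the ATP synthase genes for the same membrane ring moved in opposite directions between the untreated lines. ATP5MC1, ATP5MC2 and ATP5MC3 encode an identical mature c subunit with different targeting sequences. ATP5MC2 had 50.3, 51.4 and 44.2 CPM in CT and 66.5, 68.2 and 76.7 in FOXP3 KO, higher by 0.54 ± 0.12 untreated and 0.65 ± 0.13 with IFNγ (edgeR adjusted p = 0.00471 and 0.00266). ATP5MC1 had 43.9, 40.0 and 44.5 CPM in CT and 30.7, 26.5 and 29.0 in FOXP3 KO, a log2 fold change of -0.56 ± 0.12 (edgeR adjusted p = 0.00421, and 0.0522 with all 12 libraries in 1 fit). With IFNγ ATP5MC1 had 41.8, 23.3 and 36.6 CPM against 25.1, 15.4 and 28.5, a log2 fold change of -0.52 that did not pass (edgeR adjusted p = 0.143) but did with the replicate block (0.00918). ATP5MC3 (-0.02) did not pass untreated.

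ATP5S, a coupling factor rather than a core subunit, had 14.3, 12.5 and 12.2 CPM in CT and 24.9, 22.1 and 24.1 in FOXP3 KO. It was higher by 0.88 ± 0.14 and, with IFNγ, by 0.66 (edgeR adjusted p = 0.000846 and 0.0492). ATP5MD, a small subunit of the synthase dimer, fell by 0.37 and 0.51. Its untreated call was lost by DESeq2 and without any 1 library other than KO library 13, and that with IFNγ without CT library 13 or FOXP3 KO library 11. ATP5F1B, the catalytic beta subunit, had a log2 fold change of 0.23 untreated and, with overlapping groups, 0.44 with IFNγ (edgeR adjusted p = 0.189 and 0.0359). ATP5IF1, the inhibitor of the synthase, was at -0.17 and did not pass.

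Promoter sequence was read for the 68 of 84 nuclear subunit genes found in RefSeq (GRCh38.p14, 250 bases before to 50 after the start site). NRF1 is a transcription factor long known to bind many promoters of this family. The 9 letters GCGCATGCG, the core of its motif, occurred on either strand in 11 of 68 genes, 16.2%, against 2.34% of 27305 genes. Of these 11 genes 3 were higher and 1 lower between the untreated lines, and with IFNγ 2 were higher and 0 lower. Of all 84 nuclear subunit genes, which include those without promoter sequence, 7 were higher and 15 lower untreated. The 11 genes are too few for a statement about the motif. The ETS core CCGGAAG, bound by GABP, occurred in 21 of 68, 30.9%, against 12.2% of all genes, and 1 of the 21 was higher and 2 were lower. A match is a description of the letters and not of binding. The 4 called genes with the NRF1 core are shown, since they moved in both directions, read 5′ to 3′ along the gene with the match in capitals. In the first 2 the match is on the opposite strand, and in NDUFA8 (log2 fold change -0.38) the core overlaps its own reverse complement by 8 letters.
ATP5MC2, chr12:53676105-53676134, minus strand: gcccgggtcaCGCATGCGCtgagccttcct
COX6A1, chr12:120437884-120437913, plus strand: ggagggcacaCGCATGCGCacgaaggaaac
NDUFA5, chr7:123557957-123557986, minus strand: tatgcccatcGCGCATGCGtcaatttttct
NDUFA8, chr9:122159764-122159793, minus strand: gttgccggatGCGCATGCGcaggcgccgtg

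IFNγ was accompanied by a lower nuclear share in both lines. The nuclear subunit genes held 0.421%, 0.411% and 0.405% of the counts outside mitochondrial DNA in CT with IFNγ, below the untreated range of 0.478% to 0.507%, and 0.441%, 0.425% and 0.463% in FOXP3 KO with IFNγ, below 0.466% to 0.526%. Treated and untreated libraries did not overlap in either line. The ratios of means were 0.844 in CT and 0.887 in FOXP3 KO, and by complex they ran from 0.817 (complex III) to 0.879 (complex IV) in CT and from 0.877 (complex V) to 0.914 (complex II) in FOXP3 KO. The MT mRNA share had ratios of 1.02 in CT and 0.946 in FOXP3 KO, with overlap in both. MT mRNA counts per nuclear subunit count were therefore 8.74, 8.83 and 8.60 in CT with IFNγ, all above untreated CT, and 11.5, 11.0 and 9.18 in FOXP3 KO with IFNγ, overlapping untreated FOXP3 KO.

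Gene by gene, IFNγ in CT gave 0 higher and 1 lower of 83 nuclear subunit genes by edgeR, beside 3.53% and 1.82% of the 24416 genes tested. Unadjusted p was under 0.05 for 22, and DESeq2 called 1 higher and 1 lower. The median log2 fold change was -0.20 against -0.02 over all genes, with 14 of 83 above 0, none of them among the 9 genes of complex III or the 13 of complex IV tested. Groups were apart with IFNγ lower for 34 genes and higher for 3, against 13.5% and 10.4% of all genes. The gene that fell was UQCRC1, from 78.7, 76.7 and 89.9 CPM to 56.3, 55.2 and 62.2 CPM, a log2 fold change of -0.48 ± 0.12 (edgeR adjusted p = 0.0358, lost without any 1 of the 6 libraries, where it ran up to 0.168).

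Same-numbered libraries of a line deviated together, and with the number as a replicate block 2 nuclear subunit genes rose and 24 fell with IFNγ in CT, beside 8.67% and 9.88% of all genes. Those that fell included NDUFB1 (-0.53 ± 0.13, edgeR adjusted p = 0.000408), UQCRC1 (-0.48 ± 0.09, adjusted p = 2.91e-06), UQCR10 (-0.48 ± 0.11, adjusted p = 0.000302) and ATP5F1B (-0.36 ± 0.07, adjusted p = 5.12e-06). NDUFA9 (0.72 ± 0.19, edgeR adjusted p = 0.00154) and NDUFV2 (0.58 ± 0.21, adjusted p = 0.0316) rose.

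In FOXP3 KO the nuclear median with IFNγ was also below 0. By edgeR 0 of 83 nuclear subunit genes were higher and 0 lower, beside 0.978% and 0.00414% of the 24131 genes tested, with 5 at an unadjusted p under 0.05 and 0 by DESeq2. It was -0.13 against -0.01 over all genes, and 8 of 83 were above 0. Groups were apart with IFNγ lower for 12 genes and higher for 2, against 4.79% and 5.99% of all genes. With the replicate block 0 rose and 6 fell, beside 3.92% and 1.6% of all genes. These were ATP5ME, COX5A, NDUFB1, NDUFB3, ATP5PB and ATP5F1B, at -0.39 to -0.19, and COX5A, NDUFB1, ATP5PB and ATP5F1B were also among those that fell in CT under the block.

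**Figure D5:**
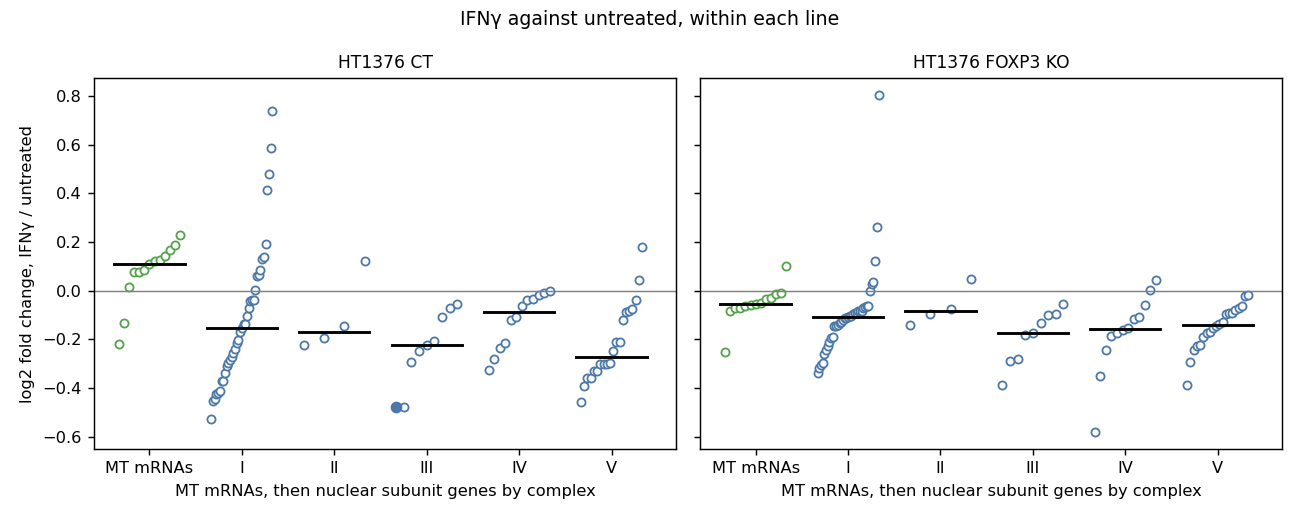
log2 fold change of IFNγ against untreated libraries in CT and in FOXP3 KO, for the 13 MT mRNAs and for the nuclear subunit genes by complex, with bars at the medians and a filled point for UQCRC1, the gene with an adjusted p under 0.05. COX6B2 and COX8C are not drawn. The nuclear medians are below 0 in every complex of both lines, and the MT mRNAs lie around 0.

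The MT mRNAs did not pass in either line without the block, with 0 of 13 by edgeR, 0 at an unadjusted p under 0.05 and 0 by DESeq2. Their medians were 0.11 in CT and -0.05 in FOXP3 KO. With the replicate block 5 rose in CT, MT-ATP8 (0.26), MT-CO2 (0.19), MT-ND2 (0.16), MT-ND5 (0.16) and MT-CO1 (0.11), and MT-ND6 fell by 0.21, beside the 8.67% and 9.88% of all genes given above. Treated and untreated libraries overlapped for all 6 of these, and with bias-adjusted deviance in edgeR only MT-CO2 and MT-ND2 passed. In FOXP3 KO 0 rose and MT-ND6 fell by 0.24 (edgeR adjusted p = 0.000832), again with overlapping groups.

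The difference between the lines in their response to IFNγ was tested as an interaction. The values given are from a fit without the replicate block, although same-numbered libraries were taken as paired within a line. By edgeR 0 of 13 MT mRNAs and 0 of 84 nuclear subunit genes were higher or lower, beside 0.0036% and 0.108% of the 27806 genes tested, and DESeq2 called 0 in both sets. Unadjusted p was under 0.05 for 0 MT mRNAs and for 2 nuclear genes, NDUFA9 (-0.62) and UQCRC1 (0.38 ± 0.18, edgeR adjusted p = 0.797). The lowest adjusted p among these genes was 0.775. The median of the interaction was -0.14 for the MT mRNAs, with 12 of 13 below 0, and 0.05 for the nuclear subunit genes, against 0.03 over all genes.

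Genes that serve mitochondrial expression were taken from lists, and their counts are read against the 14.0% higher and 18.2% lower of all genes between the untreated lines. Of 20 genes for the transcription and maintenance of mitochondrial DNA 3 were higher and 2 lower between the untreated lines, with a median of -0.14. TFAM, which packages and activates mitochondrial DNA, was at 0.07, POLRMT, the RNA polymerase, at -0.34, and neither passed. MTERF2 (0.83 ± 0.16) and MTERF1 (0.59 ± 0.15), of the family named for transcription termination, rose. POLG, the DNA polymerase (-0.73 ± 0.15), and MTERF3 (-0.49 ± 0.16) fell, the last a call lost without any 1 library other than KO library 13. These shares are near or below the background. Of 25 genes for mitochondrial RNA processing and stability 4 were higher and 2 lower, with a median of -0.05, near the background for higher genes and below it for lower ones. TRIT1 (0.92) and NSUN3 (0.64), which modify tRNAs, rose, and the ribonuclease REXO2 (-0.54) and the RNA granule protein GRSF1 (-0.39) fell. LRPPRC, which stabilises MT mRNAs, was at 0.13 and did not pass.

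Of 14 nuclear regulators of respiratory genes 2 were higher and 2 lower, with a median of -0.07, near the background in both directions. PPARGC1A, a coactivator of mitochondrial biogenesis, had 0 counts in each CT library and 20, 1 and 13 in FOXP3 KO, at least 15.9-fold higher in CPM with 3 counts over the group as the floor, and was tested only through its FOXP3 KO counts. With IFNγ it had 0, 0 and 3 counts in CT and 3, 0 and 7 in FOXP3 KO and did not pass (adjusted p = 0.653, edgeR). ESRRG, a nuclear receptor that works with PPARGC1A, had 299, 160 and 424 counts in CT and 5, 3 and 1 in FOXP3 KO, a log2 fold change of -6.24. It was tested only through its CT counts. YY1 (0.44) rose, GABPB1 (-0.54), a subunit of GABP, fell, and NRF1 (0.28) did not pass.

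Between the untreated lines the genes of the mitochondrial ribosome stood on the lower side. Of its 82 genes 3 were higher and 27 lower, against 14.0% and 18.2% of all genes, with a median of -0.32 and 16 above 0. With IFNγ 6 were higher and 12 lower, beside 13.2% and 15.7% of all genes, so that the lower share was then near the background, with a median of -0.23. GADD45GIP1 (-0.91) and MRPL1 (-0.86) of the large subunit fell, and MRPS30 (0.81) and MRPS35 (0.71) rose. Of 57 assembly factors 3 were higher and 9 lower, with a median of -0.14, below and near the background. TMEM70 (-1.03 ± 0.14), needed to assemble the ATP synthase, and the complex I factor TMEM126B (-0.87 ± 0.15) fell, and NUBPL (0.92 ± 0.13), which delivers iron-sulphur clusters to complex I, and LYRM7 (0.77 ± 0.14), a complex III factor, rose. Of 17 genes of the TCA cycle and pyruvate dehydrogenase 2 were higher and 3 lower, near the background, with IDH3A at -1.22, OGDH at -1.02, DLD at 0.30 and SUCLG2 at 0.92. Of 6 chain proteins whose present names the rule does not take, 1 was lower, NDUFAB1 (-0.48), and the 1 higher was the gene counted here as ATP5S.

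Genes with pseudogene names carried few counts. Of the 19, 12 were tested between the untreated lines by edgeR, with 0 higher and 1 lower, ATP5MC1P6 (-1.35), and 2 at an unadjusted p under 0.05. With IFNγ 13 were tested, with 0 higher and 0 lower and 1 at an unadjusted p under 0.05. Processed copies are near-identical to their parent genes, so reads of a parent can have been counted there or dropped.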

How the data were processed

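The authors aligned rRNA-depleted RNA-seq reads to hg38 (STAR 2.7.11a, per the submitters' processing notes), removed Mycoplasma reads with Kraken and deposited raw counts per gene, whole numbers from htseq with Ensembl release 103 names for 12 libraries. Strand and overlap settings of the counting were not given in the sources used here. Groups came from the labels. Members and gene lists were chosen with earlier results of these data known.

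Genes with at least 10 counts over the libraries compared were normalised by TMM and tested in edgeR 4.0.16 (R 4.3.3) with the quasi-likelihood test, 2-sided, Benjamini-Hochberg adjusted over all genes, with each comparison fitted on its own 6 libraries and the interaction on all 12. The threshold was an adjusted p of 0.05. DESeq2 1.42.0, other normalisations, filters and a replicate block were alternatives, and the script was tested on simulated data. Named were the 13 MT mRNAs, the MT rRNAs, the isoform and SDH genes, ATP5IF1, and the nuclear genes with the 5 highest and 5 lowest called log2 fold changes between lines (3 and 3 for IFNγ) among those without overlap of groups and with over 3 counts in a library. From each list the 2 highest and 2 lowest called genes were named, with TFAM, POLRMT, LRPPRC, NRF1 and PPARGC1A. Other genes are named as members of counts or, as with MT-TM and MT-TE, after their values were seen.

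Same-numbered libraries correlated over all genes, in their deviations from group means, at 0.139 to 0.152 within CT and 0.179 to 0.266 within FOXP3 KO, and were taken as paired within a line. Between lines the range was 0.0472 to 0.136, and they were not, although for genes with a mean CPM of at least 1 it was 0.126 to 0.338. Floors cover counting error only. No pair of libraries agreed within sampling noise.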

Additional observations from a re-analysis of the deposited data

How the results depend on the processing

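Of the single-gene results recomputed under the alternatives 1496 kept their direction and side of the threshold, 128 lost it, 34 gained it and 14 changed sign. Requiring a log2 fold change over 1 as well left 0 MT mRNAs in each line comparison, and 1 nuclear subunit gene untreated, 0 with IFNγ and 0 for IFNγ in CT. The 1 left was COX6B2, which was tested only through its few CT counts. Without the filter on low counts there were 8 MT mRNAs between the lines with IFNγ and 5 nuclear genes for IFNγ in CT, where DESeq2 gave 2. One fit of all 12 libraries gave 1 MT mRNA between the lines with IFNγ and turned MT-ATP6 there to -0.034. For settings other than the main test and the replicate block, the share of all genes called is not given here. Counts of calls under those settings describe how the calls depend on the setting and were not compared with all genes.

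The replicate block gave 9 MT mRNAs between the lines with IFNγ, and for IFNγ 6 MT mRNAs and 26 nuclear genes in CT and 1 and 6 in FOXP3 KO. With bias-adjusted deviance as well (legacy=FALSE) these were 7, 2 and 22, and 1 and 3. The block turned MT-RNR1 to -0.025 between the untreated lines. Between lines, where the numbers were not taken to pair libraries, it gave 10 MT mRNAs and 8 higher and 19 lower nuclear genes untreated. The causes were not tested.

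Leaving out 1 library at a time gave 3 to 10 MT mRNAs and 10 to 18 nuclear genes between the untreated lines, 2 to 6 and 4 to 11 with IFNγ, and 0 to 0 nuclear genes for IFNγ in CT, whose median ran from -0.20 to -0.15. The signs that turned were of MT-ATP6, from -0.014 to 0.36 untreated and from -0.16 to 0.21 with IFNγ, MT-ATP8, from -0.055 to 0.39 and from -0.35 to 0.033, MT-RNR1, from -0.40 to 0.42, MT-RNR2, from -0.65 to 0.16, TFAM, from -0.011 to 0.19, and MT-TE with IFNγ, from -0.31 to 0.014. None of these passed the test in the comparison concerned. Depth limits the tRNAs, COX6B2, COX8C and PPARGC1A, which have few counts.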
